A study of Mus musculus with 18 samples.

Results

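Gene deserts are long stretches of a chromosome without any annotated gene. The desert regions described here were merged MeDIP-seq peaks on the mouse autosomes that lay at least 200 kb from any gene of any biotype (protein-coding, noncoding RNA or pseudogene) in the RefSeq table of GRCm38.p6, the same assembly as mm10, which the submitters' processing notes name. Of 152196 merged regions in the series, 148111 were autosomal and 1325 of these (0.895%) were desert regions; the remaining 146786 are called other regions below. The choice used position only, not score, recurrence or group.

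Methylated DNA immunoprecipitation sequencing (MeDIP-seq) pulls down sheared DNA with an antibody against methylated cytosine and reports where the recovered fragments pile up into peaks. The tissue was myocardium of 12-week-old male C57BL/6JR mice, and the labels give the cell type as cardiomyocytes without describing an isolation of cells, so whole tissue with its other cell types cannot be told apart from heart muscle cells. In 5 groups of 3 mice a myocardial infarction (MI) was made by ligating the left anterior descending (LAD) artery of the heart, with tissue taken after 10 min or 1 h in the earliest groups and after 6 h, 24 h or 72 h in the rest. The sham group of 3 mice (0 h) underwent the operation with a suture that was not tied. One peak list was deposited for each of the 18 mice, with a score for each peak, and read depth is unknown from these lists.

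Deserts are of interest because some hold distant enhancers of neighbouring developmental genes, while others can be lost with little visible effect. In adult somatic tissue most CpG sites outside CpG islands are methylated, and sequence far from genes is usually poor in CpG. The MeDIP antibody recovers a fragment better the more methylated cytosines it carries, so a peak marks methylated sequence with enough CpG to be caught. The CpG content of the desert regions was not analysed here.

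Between the first and the last gene of the 19 autosomes there were 299 gaps of at least 400 kb without a gene, with a median length of 533.9 kb and a longest of 1.47 Mb. The part of these gaps at least 200 kb from both flanking genes came to 57.4 Mb, or 2.39% of the 2402 Mb spanned by the genes. Stretches of unknown sequence inside the gaps could not be subtracted. The genes that bounded the gaps were rarely coding ones: of 598 flanks, 264 were pseudogenes, 163 were long noncoding RNA genes and 86 were protein-coding genes. Only 7 deserts had a protein-coding gene on both sides. The median desert region lay 262.3 kb from its nearest gene and 594.4 kb from its nearest protein-coding gene. No more than 54 regions were 500 kb or farther from a gene.

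Peaks were sparser in deserts than elsewhere, in each of the 18 libraries. Deserts held 9.03 ± 0.759 peaks per Mb (SD, n = 18 libraries) and the remaining sequence 19.6 ± 2.95. The ratio of other to desert density ran from 1.81 to 2.71 over the libraries, with a mean log2 ratio of desert to other of -1.11 (two-sided sign-flip permutation test over libraries, p = 2.0e-05). Genes hold many of the other peaks. Against the sequence between genes alone the log2 ratio was -0.84 (lower in 18 of 18 libraries, p = 2.0e-05 by the same permutation test). This comparison was chosen after the values were seen. Within a desert, neighbouring regions were a median of 19.4 kb apart, against 7.83 kb between neighbouring regions outside deserts. Each autosome held desert regions, from 9 on chromosome 7, which had 4 deserts, to 139 on chromosome 3, which had 28. Their density ran from 14.5 merged regions per Mb on chromosome 7 to 32.9 on chromosome 18.

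The peaks that deserts did hold were stronger and wider. The score of a peak comes from the authors' lists, where its lowest value was 50, and desert and other peaks were compared within a library. The median score of a library's desert peaks was 85.1 ± 4.76 and that of its other peaks 71.8 ± 1.95 (SD, n = 18). The desert median was higher in 18 of 18 libraries, by 8.53 in 72 h replicate 3, which had the smallest difference, and by 22.6 in sham replicate 2, which had the largest (mean difference 13.3, sign-flip permutation p = 2.0e-05). Peaks with a score of at least 100 made up 37.1% ± 4.68 of a library's desert peaks and 21.2% ± 2.67 of its other peaks (SD, n = 18). The extreme scores of the series were not among them: the highest desert score was 339.2 and the highest elsewhere 3173. Median peak width was 1018 ± 72.8 bases in deserts and 968.7 ± 78.1 elsewhere (SD, n = 18), a difference of 49.6 bases that had the same direction in 18 of 18 libraries (sign-flip permutation p = 2.0e-05).

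The 200 kb limit was a point on a gradient and not a step. Density fell with distance from 22.9 ± 3.80 peaks per Mb inside genes (SD, n = 18) to 17.5 ± 2.20 at 10 to 50 kb, 9.98 ± 0.982 at 100 to 200 kb and 9.07 ± 0.776 at 200 to 500 kb. Over the same bands the median score rose from 70.3 ± 1.94 to 74.6 ± 2.35, 80.3 ± 3.50 and 85.0 ± 4.67. Against the neighbouring band of 100 to 200 kb, deserts still had a lower density (log2 ratio -0.14, lower in 18 of 18 libraries, p = 2.0e-05) and a higher median score (by 4.82, higher in 18 of 18 libraries, p = 2.0e-05; sign-flip permutation tests chosen after the values were seen). At 500 kb and beyond, in only 2.33 Mb, density was 8.11 ± 1.18 and the median score 90.0 ± 9.82.

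**Figure D1:**
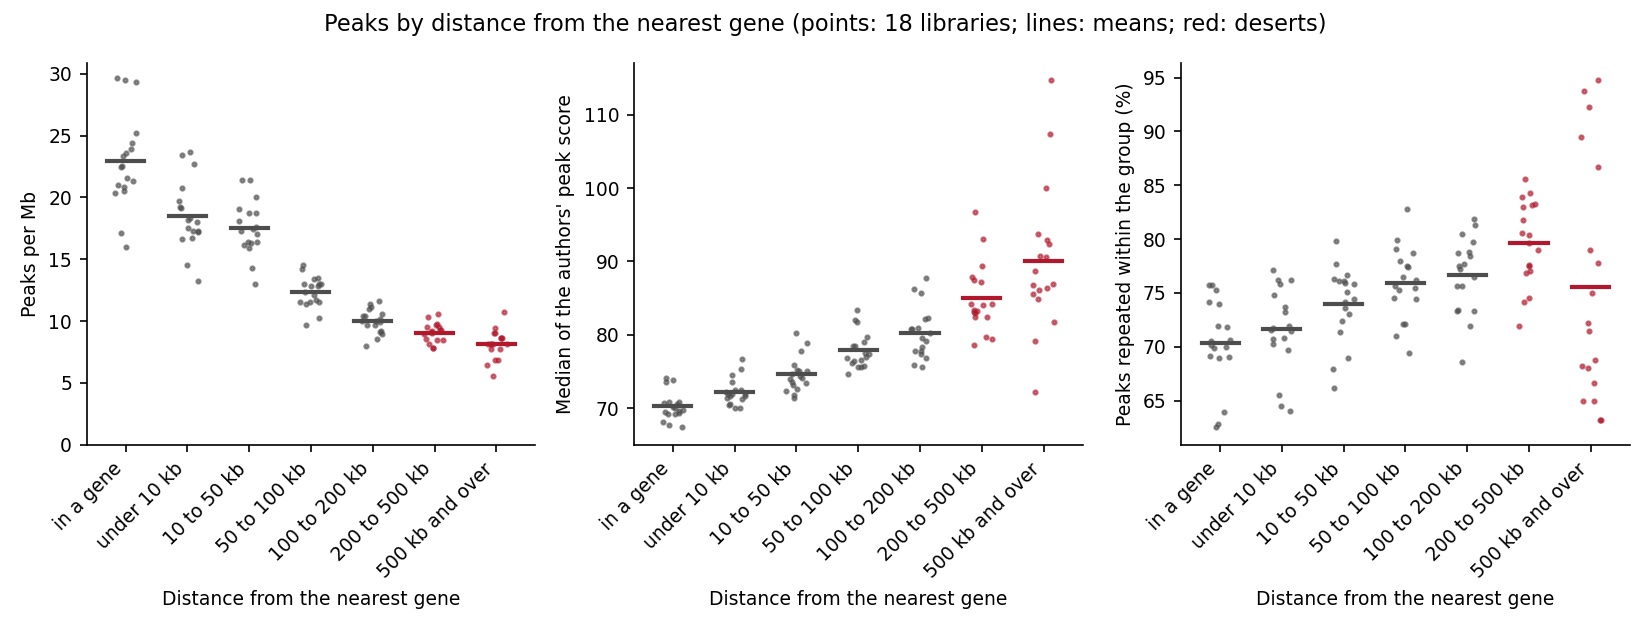
Peaks per Mb, median score and the share of peaks repeated in another library of the same group, for 7 bands of distance from the nearest gene. Points are the 18 libraries, lines their means, and the desert bands are red; density falls from 22.9 to 9.07 peaks per Mb between genes and the 200 to 500 kb band while the median score rises from 70.3 to 85.0.

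Regions just inside and just outside the limit varied in how many libraries had a peak in them. The member nearest the limit, on chromosome 4 from 5144985 to 5147719, lay 200130 bases from the pseudogene Gm18933 and had a peak in 18 of 18 libraries. The next members, on chromosome 5 from 68823102 to 68824044 and on chromosome 3 from 43049483 to 43050125, each had a peak in 2 libraries. The nearest regions left out lay 199893, 199844 and 199817 bases from a gene, on chromosomes 7, 14 and 12, with a peak in 5, 3 and 2 libraries.

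Desert regions recurred across mice more often than other regions. A peak in all 18 libraries was found for 171 desert regions (12.9%) and for 5.01% of the other regions. This share also rose with distance, from 3.93% inside genes to 7.09% at 10 to 50 kb, 9.34% at 100 to 200 kb and 13.1% at 200 to 500 kb, and was 9.26% (5 of 54 regions) at 500 kb and over. At the opposite end, 364 desert regions (27.5%) had a peak in 1 library, against 29.2% of the others, and the median was 4 libraries against 3. The 171 recurrent regions lay in 110 of the 299 deserts and held 34.9% of all desert peaks; regions of this kind held 16.6% of the other peaks. They were wide, with a median of 2510 bases against 1957 for the other regions found in all 18 libraries. Their scores averaged 135.6, against 132.9 for their counterparts outside deserts, and the medians over regions were 130.3 and 121.5. Without the regions found in all 18 libraries, the median score of desert peaks was still 4.61 above that of other peaks (higher in 18 of 18 libraries, sign-flip permutation p = 2.0e-05; chosen after the values were seen).

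**Figure D2:**
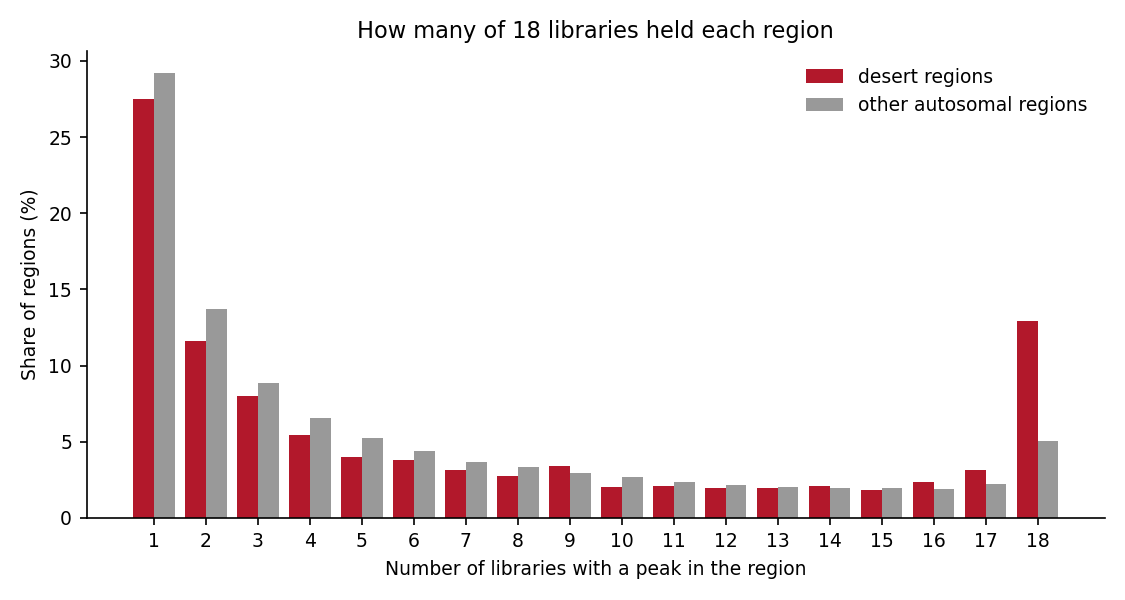
Share of regions (percent) by the number of libraries, from 1 to 18, that had a peak in them, for desert regions (red) and other autosomal regions (grey). The bars part most at 18 libraries, with 12.9% of desert regions against 5.01% of the others.

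Most desert peaks of a library were repeated in another mouse of its group. Repeats in mice of other groups were not compared in the same way. Of a library's desert peaks, 79.5% ± 3.87 touched a peak of another mouse of the same group (SD, n = 18), against 71.6% ± 3.80 of its other peaks. The difference was 7.86 percentage points and had this direction in 17 of 18 libraries (sign-flip permutation p = 6.0e-05). The exception was 72 h replicate 3, with 71.6% of desert and 75.4% of other peaks repeated. Most of the difference went with score. Within bins of similar score it was 1.95 percentage points, with the same direction in 13 of 18 libraries (sign-flip permutation p = 0.0331, chosen after the values were seen). This smaller difference did not hold firmly. Leaving out any of 10 libraries singly took the p above 0.05, up to 0.0639 without sham replicate 2, while without 72 h replicate 3 it was 2.49 points (permutation p = 0.00319).

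The strongest recurrent desert region lay on chromosome 9 from 5616104 to 5617992, 243.1 kb from Casp12, which encodes a caspase of the inflammatory group, and 550.4 kb from Pdgfd, a platelet-derived growth factor. Its scores ran from 157.8 in 72 h replicate 3 through a median of 233.5 to 315.7 in sham replicate 2. The mean was 237.1 in the sham libraries and 235.6 in the MI libraries, well within that spread. The second lay on chromosome 1 from 29697780 to 29700682, between the pseudogenes Gm5525 and Gm7858. Its sham scores were 289.5, 251.5 and 208.5, and its 72 h scores were 126.1, 250.0 and 189.6, so the groups overlapped. The third lay on chromosome 1 from 147943443 to 147944925, 382.1 kb from the nearest gene (Gm22966, a small nucleolar RNA). Its mean score was 210.9 ± 44.4 (SD, n = 18). The fourth, on chromosome 2 from 7794574 to 7796030, was 351.2 kb from the pseudogene Gm13254 and 398.2 kb from Celf2, which encodes an RNA-binding splicing regulator. Its scores ran from 134.2 to 303.0. The fifth, on chromosome 5 from 80606816 to 80608701, was 285.0 kb from a small nuclear RNA gene (Gm22974) and 410.4 kb from Adgrl3, an adhesion G protein-coupled receptor. Its scores ran from 159.5 to 304.4, and the mean was 260.7 in sham and 199.7 in MI. The groups overlapped, with sham scores of 215.7, 304.4 and 262.2 and MI scores up to 254.5 (6 h replicate 2). Sham replicate 2 also had the highest median score over the 171 recurrent regions, 159.9, against 112.9 to 145.4 in the other libraries.

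The 5 members farthest from a gene lay in 2 deserts, on chromosomes 4 and 15. The farthest, on chromosome 4 from 29840113 to 29841411 and 643.8 kb from any gene, had a peak in 7 libraries drawn from all 6 groups, with scores from 50.2 to 114.7. Of the 5, 3 had a peak in 1 library only, and the most recurrent, on chromosome 15 from 15100542 to 15101915, had a peak in 12.

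Desert by desert, regions were spread widely: 249 of the 299 deserts held at least 1. The 50 without any were small, with 1.64 Mb of desert sequence in all. The longest desert was the 1.47 Mb gap on chromosome 4 between the pseudogene Gm11919 and the long noncoding RNA 4930556G01Rik. Its nearest coding genes were Epha7, an ephrin receptor, and Map3k7, a kinase of inflammatory and TGF-beta signalling. It held 24 regions, 3 of them found in all 18 libraries. The second, 1.31 Mb on chromosome 15, was bounded by the pseudogene Gm9630 and the long noncoding RNA 4930557F08Rik, and its nearest coding genes, farther out, were the cadherin genes Cdh6 and Cdh9. It held 27 regions, of which 5 were found in all 18. Among the 12 deserts of at least 1 Mb the densest lay on chromosome 18 between the small nucleolar RNA LOC115488950 and the long noncoding RNA Gm31086, with 31 regions or 39.5 per Mb. Its nearest coding genes, both beyond those flanks, were Cdh2 (N-cadherin, which joins heart muscle cells) and Dsc3 (desmocollin 3). Only 1 of those 31 was found in all 18 libraries. The sparsest, on chromosome 14 between the pseudogene Gm19050 and the small nucleolar RNA Gm24774, had 13 regions or 14.7 per Mb and 0 found in all 18. Its nearest coding genes were Olfm4 and Pcdh17, a protocadherin, also beyond the flanks.

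**Figure D3:**
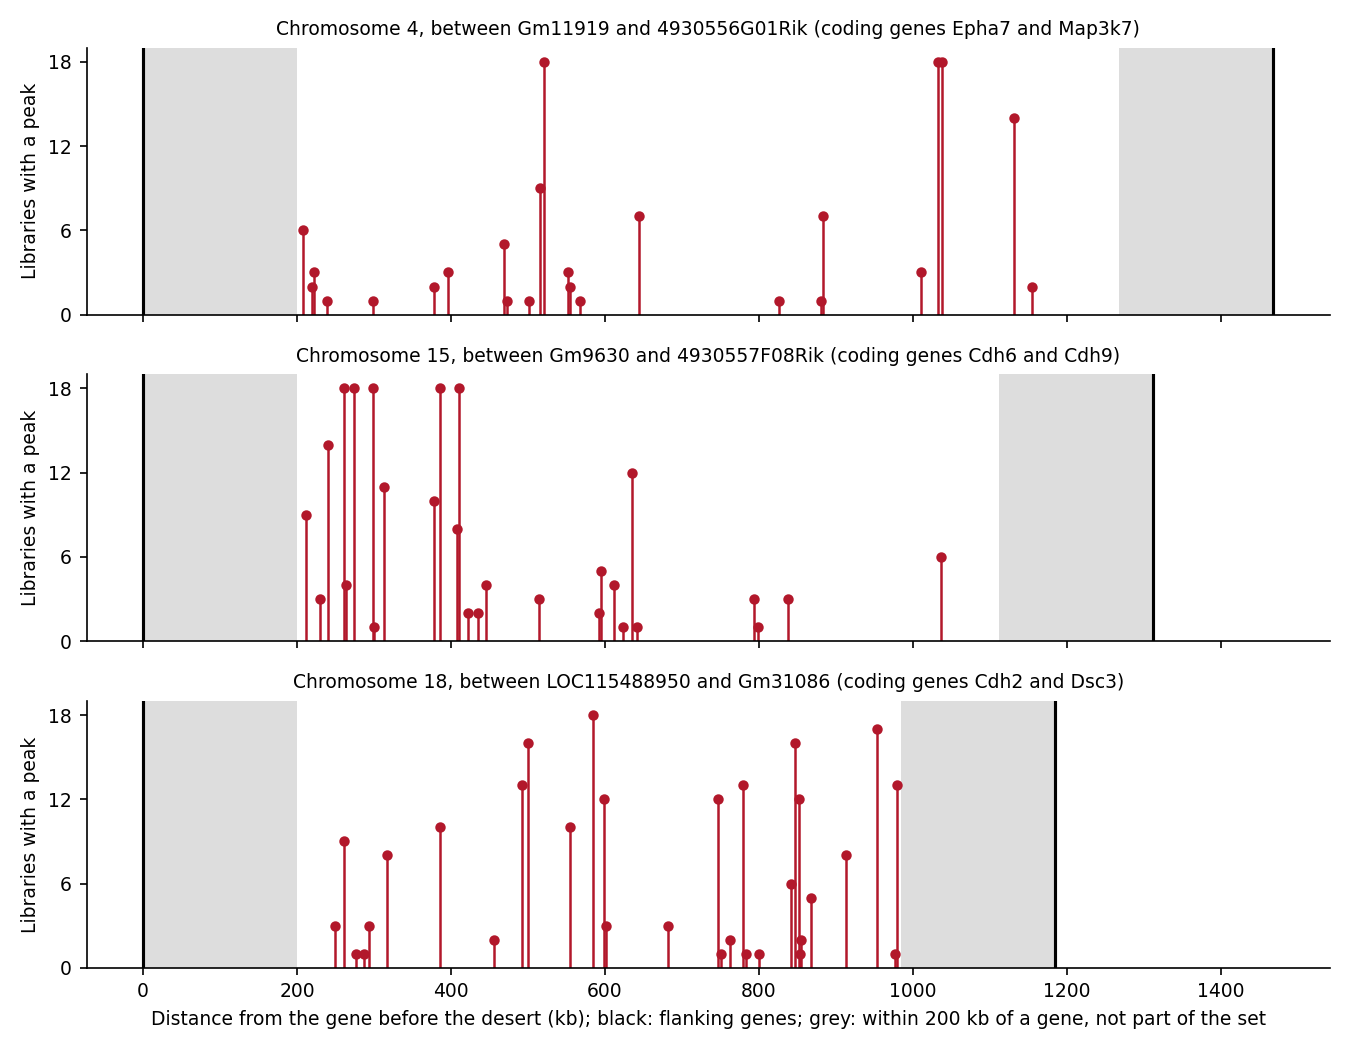
Desert regions in 3 deserts, those with the most regions (31, 27 and 24) among the deserts chosen for description. Height is the number of libraries (of 18) with a peak, and the horizontal axis is the distance in kb from the gene before the desert. Black lines mark the flanking genes and grey the 200 kb next to them; the chromosome 15 desert has 5 regions at 18 libraries, all in its part nearer Gm9630, and the chromosome 18 desert has 1 (coding genes in the titles are the nearest ones beyond the flanks).

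Coding genes beside deserts were described with 2 lists of 25 genes. A gene was counted when it was the nearest coding gene on a side of a desert, however far away. Of all 20560 autosomal coding genes 1.94% were in that position. All 25 genes of a list of cell adhesion and synapse genes (cadherins, protocadherins, Slitrk and neurexin genes) were, but the list was drawn up from genes known to sit in gene-poor sequence, so its count is not evidence. Their 55 deserts held 300 regions, or 21.9 per Mb, against 23.1 over all deserts, and 14.3% of them were found in all 18 libraries. The other list, of 25 developmental regulators, was chosen with earlier results of these data known, so its count is not evidence either. Of its genes 6 were beside a desert, among them Sox9, Nr2f1 and Isl1 (transcription factors, Isl1 of heart progenitors), Bmp2 and Fgf10 (secreted signals). Their 6 deserts held 24 regions, or 29.9 per Mb, 9 of them beside Bmp2 and 6 beside Sox9. Among the 24, 2 (8.33%) were found in all 18 libraries, 1 beside Sox9 and 1 beside Isl1. Over all deserts this share was 12.9%.

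The share of peaks that fell in deserts was compared between groups to ask whether methylation far from genes moved with time after infarction. The sham libraries had 1.13%, 0.932% and 1.19% of their autosomal peaks in deserts. At 10 min the shares were 0.995%, 1.29% and 1.06%, which spanned the sham range. At 1 h they were 1.13%, 1.15% and 1.19%, and at 24 h 1.05%, 1.13% and 1.15%. These 6 libraries were close together and overlapped sham. At 6 h the shares were 1.27%, 1.22% and 1.33%, each above the 3 sham values. The number of desert peaks was not higher at 6 h, with a mean of 524.7 against 533.7 in sham. Autosomal peaks in all averaged 41434 at 6 h and 49897 in sham. At 72 h they were 0.895%, 0.937% and 1.25%, so replicate 3 stood apart from the other two.

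No difference passed a test. Differences between the 6 groups, sham included, made up 0.375 of the variance in the share (permutation p = 0.278, adjusted p = 0.597 over 4 measures). Leaving out 1 library at a time moved this value between 0.278 and 0.618, and 72 h replicate 3 held it down the most. Leaving that mouse out gave 0.618 (permutation p = 0.0416; 0.122 after adjustment). The mean difference from sham was 0.19 percentage points at 6 h (1.27% ± 0.0581 against 1.08% ± 0.134, SD, n = 3 each; exact permutation p = 0.1, the smallest that 3 against 3 allows, adjusted p = 0.5 over 5 times). Without sham replicate 2, the sham library with the lowest share, the 6 h difference was 0.115. The difference was 0.031 at 10 min, 0.0734 at 1 h, 0.0267 at 24 h and -0.057 at 72 h (exact permutation p from 0.4 to 0.9, adjusted p = 0.9 each). All 15 MI libraries had 1.14% ± 0.130 (SD, n = 15), 0.0528 percentage points above sham (exact permutation p = 0.533). The share of covered bases gave 0.364 of the variance between groups (permutation p = 0.299), the median score of desert peaks 0.192 (p = 0.74) and the repeat share 0.0401 (p = 0.99), with adjusted values from 0.597 to 0.99. Among the 15 pairs of groups, the shares did not overlap for 6 h against sham, 1 h and 24 h (exact permutation p = 0.1 each). Other measures set other pairs apart. The numbers of desert peaks did not overlap for 10 min against sham and against 72 h (exact permutation p = 0.1 each). The median scores did not overlap for 10 min against 6 h (exact permutation p = 0.1).

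The share moved with the length of the list. Libraries held between 33354 autosomal peaks (6 h replicate 3) and 59014 (72 h replicate 2), a range of 1.78-fold for peaks outside deserts, but only 445 to 598 desert peaks, a range of 1.34-fold. Across the 18 libraries the desert share fell as the number of peaks rose (Pearson r = -0.84, permutation p = 1e-05, the smallest 100000 relabelings give; Spearman rho = -0.73, permutation p = 0.00101; adjusted p = 2.0e-05 and 0.00202 over 2 relations). The number of peaks is also the denominator of the share. Without the 2 libraries farthest from the median number (72 h replicate 2 and 6 h replicate 3), r was -0.77 (permutation p = 0.00047). The 3 longest lists were those of sham replicate 2 and 72 h replicates 1 and 2, and without them r was -0.64 (permutation p = 0.00993) and rho was -0.55 (permutation p = 0.0388, n = 15 libraries; chosen after the values were seen). With each list cut to its 33354 highest-scoring peaks, the 6 h share was 0.114 percentage points above sham (exact permutation p = 0.1). Across the 15 MI libraries the share did not follow the logarithm of time (r = -0.20, permutation p = 0.482; rho = -0.22, p = 0.443); each choice of 2 of the 10 min libraries to leave out gave r between -0.53 and -0.17, and without the 72 h libraries the sign turned (r = 0.16, permutation p = 0.625; rho = 0.065, p = 0.864; n = 12).

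**Figure D4:**
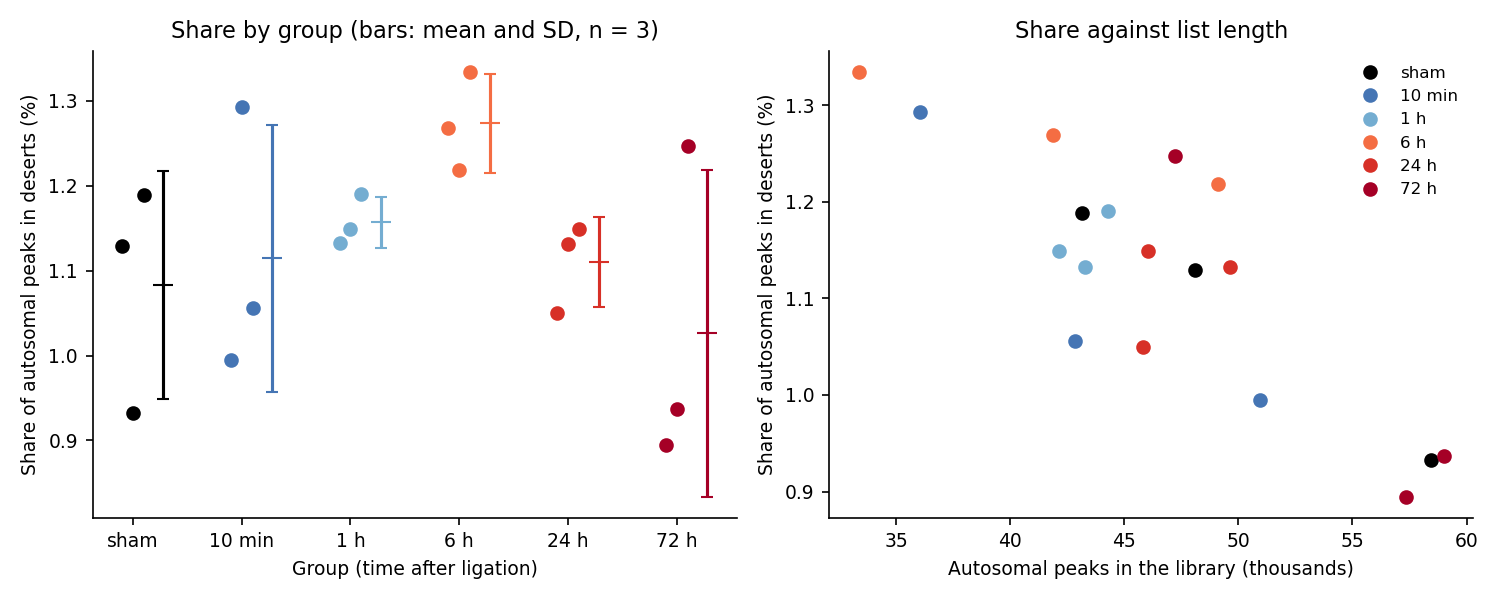
Left, share of a library's autosomal peaks that lay in deserts (percent) for each mouse, with mean and SD of 3 per group. Right, the same share against the number of autosomal peaks in the library; the 3 libraries at 6 h sit between 1.22% and 1.33%, and the 3 longest lists have the lowest shares, from 0.895% to 0.937%.

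Single regions were compared by presence of a peak: gained when all 3 libraries of a time and 0 of 3 sham libraries had it, lost in the opposite case. With 3 against 3 no region can pass a correction, so these are descriptions beside the percentage of all autosomal regions. At 10 min 3 desert regions (0.226%) were gained and 7 (0.528%) lost, against backgrounds of 0.218% and 0.627%. At 1 h 0 were gained and 5 (0.377%) lost, with backgrounds of 0.223% and 0.55%. At 6 h, the time with the highest desert share, 3 (0.226%) were gained and 4 (0.302%) lost, against 0.203% and 0.707%. At 24 h 6 (0.453%) were gained and 3 (0.226%) lost, against 0.394% and 0.524%. At 72 h 5 (0.377%) were gained and 6 (0.453%) lost, against 0.724% and 0.401%. Each count was 7 or fewer, and nothing particular to deserts is read from them. For MI against sham, 0 desert regions were gained (no sham peak, and peaks in 12 or more MI libraries; background 0.0378%) and 2 were lost (a peak in every sham library and in no more than 3 MI libraries; 0.151%, background 0.255%).

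**Figure D5:**
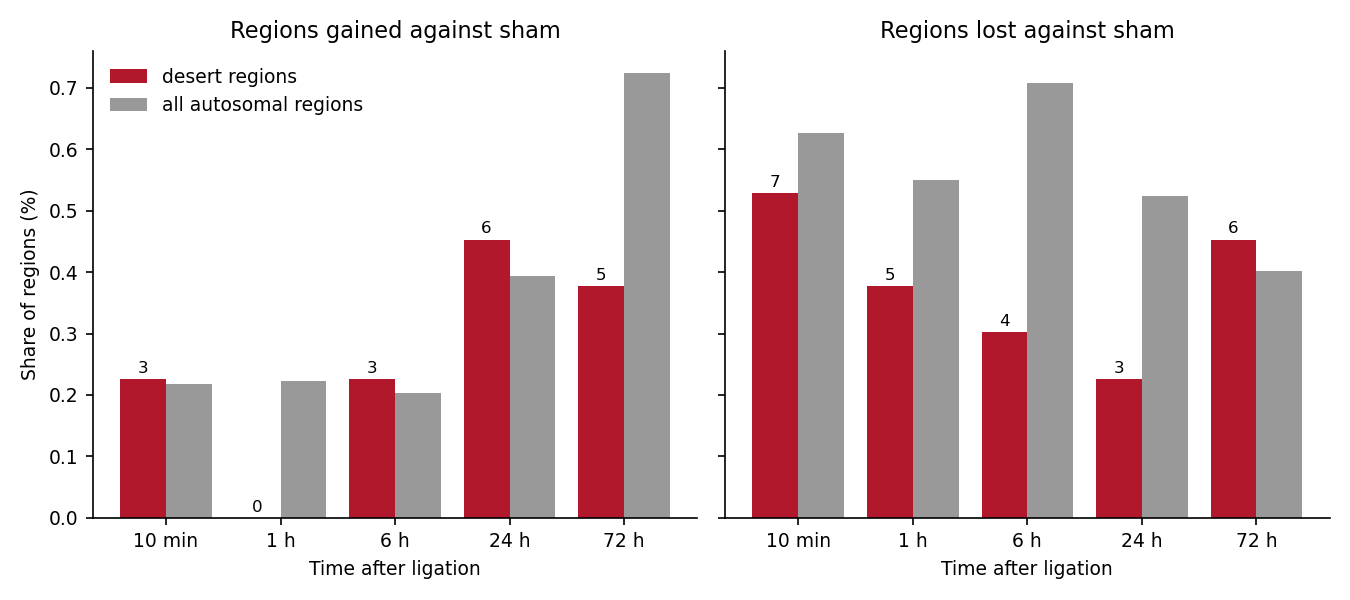
Percentage of desert regions (red, with their number) and of all autosomal regions (grey) gained or lost against sham at each time. Every red bar rests on 7 regions or fewer, and at 72 h 0.377% of desert regions were gained against 0.724% of all autosomal regions.

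Regions gained at 72 h had a peak in between 2 and 5 of the 12 MI libraries of other times. The first gained at 72 h lay on chromosome 13 from 86349160 to 86350613, 302.4 kb from Cox7c, a subunit of cytochrome c oxidase. Its 72 h scores were 172.3, 64.0 and 83.5, and it also had a peak in 2 libraries at 24 h and in 1 each at 6 h and 1 h. The second, on chromosome 15 from 70298933 to 70300304, had 72 h scores of 60.1, 115.5 and 78.2 and a peak in 5 earlier MI libraries. The third, on chromosome 5 from 133255981 to 133257687, lay 712.8 kb from Auts2, a gene of brain development, and had scores of 115.3, 53.2 and 64.8. The lowest 72 h score of each of these 3 regions lay between 53.2 and 64.0, where 50 is the floor of the lists.

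Regions lost at 72 h had a peak in between 3 and 9 of the 12 MI libraries of other times. That on chromosome 2 from 123478328 to 123479072, with Sqor and Sema6d as its nearest coding genes, had sham scores of 97.1, 58.6 and 79.7 and a peak in 6 MI libraries before 72 h. That on chromosome 3 from 61707065 to 61708760, 338.4 kb from Rap2b, had sham scores of 70.8, 69.2 and 93.4 and a peak in 9 MI libraries. That on chromosome 13 from 10888750 to 10890366 lay 212.0 kb from the long noncoding RNA Gm40666. Its nearest coding genes were Chrm3, a muscarinic receptor, 527.7 kb away, and Ryr2, the calcium release channel of heart muscle, 662.7 kb away. Its sham scores were 64.6, 65.8 and 72.7; peaks were present in 2 libraries each at 10 min, 1 h and 6 h, while all libraries at 24 h and 72 h lacked one. The 2 regions lost in MI lay on chromosome 18 from 18849960 to 18851654, in the chromosome 18 desert described above, and on chromosome 6 from 79272738 to 79273955. The first had sham scores of 52.5, 54.3 and 67.5 and a peak in 2 MI libraries, and the second had sham scores of 51.8, 81.0 and 69.5 and a peak in 3.

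Desert regions particular to 1 group were few. A peak in at least 2 libraries of a group and in no library of any other was found for 7 regions in sham (0.528%; 0.312% of other regions), 5 at 6 h (0.377%; 0.182%), 2 at 24 h (0.151%; 0.301%) and 1 each at 10 min and 1 h (0.0755% each; 0.187% and 0.201%). At 72 h there was 1 such region (0.0755%), against 0.793% of the other regions. Of the 364 desert regions found in a single library, 84 came from the 6 h libraries (39 in replicate 2 and 33 in replicate 1). The rest came from 72 h (68), 24 h (62), sham (55), 10 min (49) and 1 h (46). The order was another one outside deserts, where 11103 of 42865 such regions came from 72 h, 8182 from sham and 6848 from 24 h. Fewer came from 10 min (5950), 6 h (5565) and 1 h (5217). The difference between these orders was not tested. In 6 h replicates 2 and 1, regions found in no other library were 6.67% and 6.37% of the desert regions with a peak. Outside deserts these shares were 5.27% and 4.61%. In 6 h replicate 3 the share was lower in deserts, 2.73% against 3.48% outside them.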

How the data were processed

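The values used were peak lists, 1 per mouse for 18 mice. The submitters' processing notes name Bowtie2, MACS2 and the build mm10, with no version or option, and the use of an input library is not given in the sources used here. The deposited score has no stated unit or scale and was used as given by the authors to rank and describe peaks. Reads were not counted, so intervals for counting error cannot be given. Members and gene lists were chosen with earlier results of these data known.

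Positions are counted from 1. Overlapping peaks of the 18 lists (1 shared base or more) were joined into merged regions. Distances were taken to 46714 autosomal genes of the RefSeq table; 328 genes placed below base 3000000, below every autosomal peak, were left out, which left the members at 1325. Density was computed between the first and last gene of a chromosome. Named regions were the 5 farthest from a gene, the 5 strongest found in all 18 libraries, up to 3 gained and 3 lost at 72 h and in MI, and 3 on each side of the limit; named deserts were the 5 longest and the 3 densest and 3 sparsest of at least 1 Mb, of which the text gives a part. Group effects were tested by the share of variance between groups with 100000 relabelings (permutation test), desert against other values by sign flips over libraries, and times against sham by exact permutation tests, all two-sided except the share of variance, with Benjamini-Hochberg adjustment. The p-values measure the spread between these mice. Scripts were tested on simulated data and used Python 3.11.15, numpy 2.4.6 and pandas 2.3.3. No genome sequence was used, so no sequence is printed. One gene of the lists is not reported here by name.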

Additional observations from a re-analysis of the deposited data

How the results depend on the processing

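The lower density and the higher median score of desert peaks kept their direction and passed the threshold under every setting that gave a value for them. The wider peaks and higher repeat share did so too, except at a limit of 500 kb, where only 54 regions remained. There the repeat difference was 3.87 percentage points (sign-flip permutation p = 0.198) and the width difference 3.08 bases (permutation p = 0.875). No value is given for density, width or repeat share without the regions found in all 18 libraries. When lists were cut to equal length, the difference in desert share from sham turned to -0.026 percentage points at 10 min, -0.0010 at 1 h and -0.0040 at 24 h. Lists of equal length gave no value for the relation with list length.

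Counts of gained and lost regions were small and moved easily. At 500 kb, 1.85% (1 region) was gained at 10 min and at 6 h, 0% at 24 h and 72 h, and 0% was lost at each time and in MI. With scores of at least 100, 0% was gained at 6 h and 24 h and 1.69% lost at 6 h. With equal numbers of peaks 0.091% was lost at 72 h and 0% in MI.

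Leaving out 1 library at a time gave differences in share from sham of -0.0582 to 0.0907 at 10 min, -0.0021 to 0.126 at 1 h, 0.115 to 0.243 at 6 h, -0.0488 to 0.0793 at 24 h, -0.168 to 0.0088 at 72 h and -0.0227 to 0.105 in MI. Gained regions ran from 0.227% to 0.847% at 10 min, 0% to 0.762% at 1 h, 0.227% to 0.929% at 6 h, 0.454% to 1.29% at 24 h and 0.379% to 1.30% at 72 h. Lost regions ran from 0.530% to 2.45% at 10 min, 0.379% to 1.84% at 1 h, 0.303% to 1.68% at 6 h, 0.227% to 1.45% at 24 h, 0.454% to 1.91% at 72 h and 0.0757% to 1.45% in MI. With 2 libraries in a group, more regions meet the rule by construction.

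No pairing of samples by replicate number was seen in the presence of peaks in desert regions, the only values checked for it. Correlations of same-numbered libraries ran from -0.122 to 0.118, and those of libraries with different numbers from -0.113 to 0.136. Of the 18 libraries, 6 correlated best with their own number. With the replicate number as a block, groups gave 0.444 of the variance in the share (permutation p = 0.253). None of the 10 results computed this way changed its call. Those against sham could not have passed the threshold, because the exact sign-flip test cannot give a p under 0.25 there. Depth is unknown, so a missing peak may lie just under the floor of a list.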
